A study of Mus musculus with 8 samples.

Results

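Gene expression was compared between cells of gastrulating mouse embryos that carried an active Mesp1 reporter (GFP+) and cells without it (GFP-), over embryonic days (E) 6.5 and 7.5 together. All 8 arrays of the series entered the comparison, 4 of GFP+ and 4 of GFP- cells, as 4 pairs of 1 stage and 1 replicate number. The groups were GFP+ cells at E6.5, GFP+ cells at E7.5, GFP- cells at E6.5 and GFP- cells at E7.5, each with 2 arrays that the labels call biological replicates. Both fractions came from embryos with the same pair of transgenes, Mesp1-rtTA and Teto-H2B-GFP. The Mesp1 construct drives a tetracycline-controlled activator, which switches on a green fluorescent histone, so a cell is scored by the fluorescence it holds and not by its Mesp1 transcript at sorting. Histone-bound GFP is long-lived, and the timing of induction is not given in the sources used here. Each array holds RNA of 50 living cells, amplified over 25 PCR cycles. GFP- cells were living cells without the fluorescence, and the labels do not say whether the fractions of a pair came from the same embryos.

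At gastrulation, epiblast cells enter the primitive streak, lose their epithelial junctions and leave as mesoderm. Nodal, Wnt, BMP and FGF signals drive this step, the T-box factor Eomes acts upstream of Mesp1, and Snail-family repressors silence the gene of E-cadherin. Mesp1 marks the first mesoderm to leave the streak, which gives rise to the heart, much of its vasculature and part of the head mesoderm.

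All values below are log2 expression per probe set as made by the authors with RMA, and each difference is GFP+ minus GFP-, so that 1 is 2-fold. Where 4 values are listed they are in the order E6.5 replicate 1, E6.5 replicate 2, E7.5 replicate 1 and E7.5 replicate 2. The test was limma with the 4 pairs as blocks, adjusted by Benjamini-Hochberg over the 11706 genes measured, and its p-values reflect only the spread between these samples. With arrays of sorted pools, fewer cells of a type and less RNA per cell cannot be told apart. Array medians were 4.20 to 4.23 for replicate 1 and 4.54 to 4.59 for replicate 2, so the replicate numbers differed in scale. Pairing took this offset out of each difference, and the median difference of all genes was 0.003.

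No gene passed the paired test at an adjusted p under 0.05 (0% of genes in either direction, limma), while 577 higher genes (4.93%) and 597 lower genes (5.1%) had an unadjusted p under 0.05, 1174 in all (10% of genes). The genes that differed the same way at both stages were therefore counted by sign and size, with no test. GFP+ cells had the higher value in all 4 pairs for 1065 genes (9.1% of those measured) and the lower value in all 4 pairs for 1070 genes (9.14%). The 4 GFP+ arrays lay wholly above the 4 GFP- arrays for 144 genes (1.23%) and wholly below them for 188 (1.61%), 332 in all (2.84%). A difference of at least 1 in every pair was reached by 6 genes that were higher in GFP+ cells (0.0513%) and 25 that were lower (0.214%). These 31 genes are described first. They were chosen by the same differences that are printed for them, so their values are a description.

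Mesp1, the gene behind the reporter, checks the labels of the sort. It was at 9.75, 10.03, 8.75 and 8.65 in GFP+ cells, against 5.64, 6.26, 7.76 and 8.06 in GFP- cells. All GFP+ arrays lay above all GFP- arrays, and the pair differences were 4.11, 3.76, 0.98 and 0.59. The mean difference was 2.36 (SE 0.69, limma adjusted p = 0.403). The GFP- arrays were higher in Mesp1 at E7.5 than at E6.5, and the margin between the fractions was narrow there. The other measured markers of nascent mesoderm set for the sort, Mixl1, Tbx6 and Snai1, were also higher in GFP+ cells in all 4 pairs. The summed level of the 4 markers on a linear scale was 2505 to 4861 in GFP+ arrays and 274.8 to 1586 in GFP- arrays.

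The 6 genes that were at least 1 higher in GFP+ cells in every pair were Aplnr, Frzb, Dll3, Klhl6, Wnt5a and Adam19. Aplnr, a receptor for apelin and Apela that guides mesoderm migration, was at 8.52, 8.68, 10.89 and 10.60 in GFP+ cells, against 3.29, 3.69, 9.86 and 9.58 in GFP- cells. The fractions overlapped across stages because GFP- cells at E7.5 were above GFP+ cells at E6.5, although GFP+ was higher within each pair. The mean difference of Aplnr was 3.06 (SE 0.88, limma adjusted p = 0.403). Another probe set of Aplnr, at a similar mean level (7.80, against 8.14 for the one used), differed less. Its mean difference was 1.65, with 0.87 to 2.61 over the pairs, so it fell short of 1 in at least 1 pair. Frzb, a secreted antagonist of Wnt ligands, was at 9.82, 9.54, 9.04 and 8.67 in GFP+ cells, against 4.50, 5.94, 7.78 and 6.92 in GFP- cells. The fractions did not overlap for Frzb, with a mean difference of 2.98 (SE 0.70, limma adjusted p = 0.33). Dll3, a divergent Notch ligand of the presomitic mesoderm that dampens Notch signalling in its own cell, was at 8.32, 8.93, 9.28 and 10.13 in GFP+ cells, against 4.06, 5.58, 8.10 and 8.90 in GFP- cells. Dll3 was higher at E7.5 than at E6.5 in both fractions and higher in GFP+ cells within each pair (mean difference 2.51, SE 0.59, limma adjusted p = 0.33).

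Klhl6, a BTB-kelch protein known from B lymphocytes, was at 6.93, 7.42, 7.52 and 6.88 in GFP+ cells, against 4.29, 3.77, 5.38 and 5.48 in GFP- cells. Its fractions did not overlap, and its smallest pair difference was the widest of the 6 genes (mean difference 2.46, SE 0.37, limma adjusted p = 0.256). Wnt5a, a ligand mostly of the Wnt branch that does not act through beta-catenin, was at 5.59, 6.44, 5.69 and 6.95 in GFP+ cells, against 2.87, 2.77, 4.43 and 5.81 in GFP- cells. The GFP- mean of Wnt5a (3.97) lay below 4.38, the median of all deposited values, so the size of its difference (2.20, SE 0.47, limma adjusted p = 0.311) is uncertain. Adam19, a membrane metalloprotease required for heart septum and valve formation in mice, was at 8.09, 8.30, 7.66 and 7.81 in GFP+ cells, against 5.46, 6.40, 6.37 and 6.43 in GFP- cells. Adam19 had the tightest arrays of the 6 genes (7.96 ± 0.29 in GFP+ and 6.16 ± 0.47 in GFP- cells, SD, n = 4 each) and no overlap.

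The promoter sequences of Frzb and Dll3, 2 signalling genes of this set, are shown because each holds a motif counted further on, and only that motif is in capitals. They are the 250 bases before the annotated start from RefSeq (GRCm38.p6), written 5′ to 3′ on the strand of the gene. Frzb lies at chr2:80447397-80447646 on the minus strand, and the capitals mark AGGTGT, the core of a T-box binding site. Dll3 lies at chr7:28301786-28302035 on the minus strand, and the capitals mark CACCTG, which reads CAGGTG on the other strand and is the E-box of the Snail and ZEB repressors.
Frzb: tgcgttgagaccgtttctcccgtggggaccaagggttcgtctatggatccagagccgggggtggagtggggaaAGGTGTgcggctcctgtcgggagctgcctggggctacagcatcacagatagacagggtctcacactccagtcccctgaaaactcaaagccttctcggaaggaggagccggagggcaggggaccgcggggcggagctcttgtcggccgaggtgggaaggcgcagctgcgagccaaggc
Dll3: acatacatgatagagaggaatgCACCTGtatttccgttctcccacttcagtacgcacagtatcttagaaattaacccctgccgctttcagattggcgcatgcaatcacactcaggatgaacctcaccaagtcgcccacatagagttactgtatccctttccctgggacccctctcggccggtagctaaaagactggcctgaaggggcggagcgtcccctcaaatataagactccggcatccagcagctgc

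**Figure D1:**
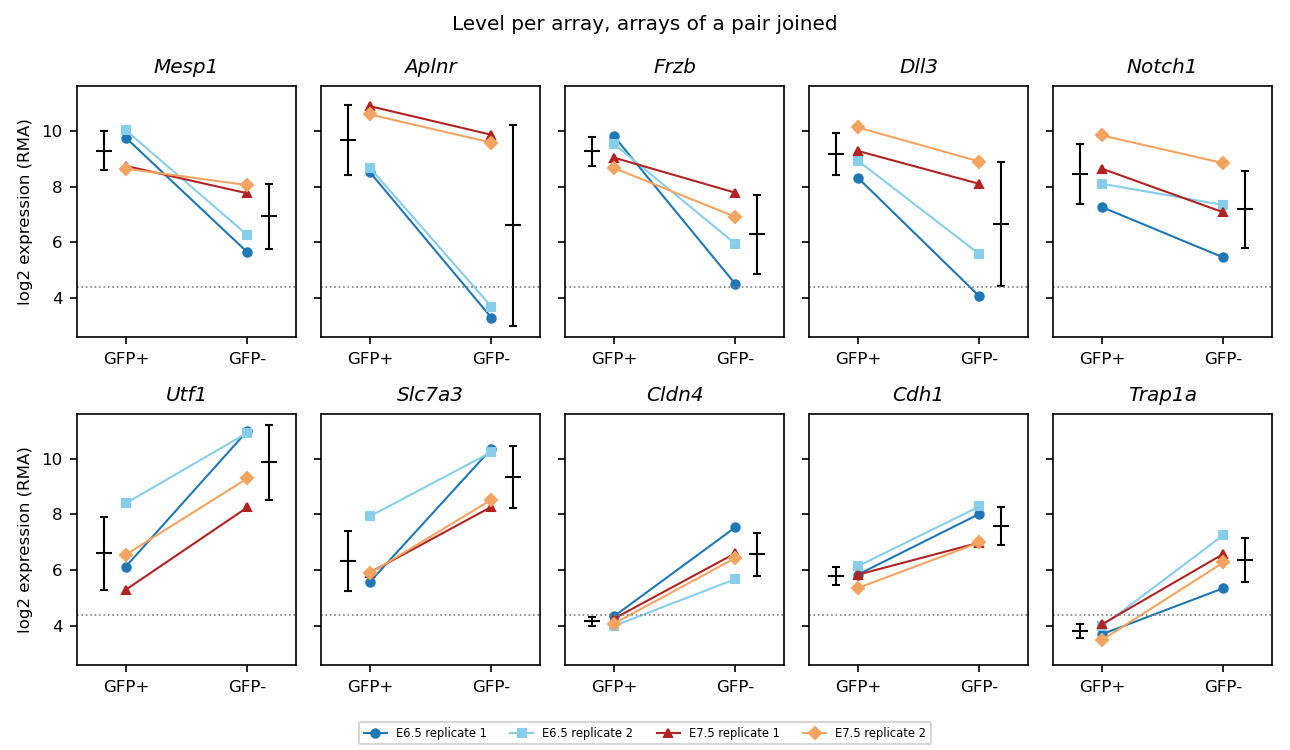
Log2 expression (RMA, y axis) of 10 genes in each of the 8 arrays, GFP+ left and GFP- right, with the arrays of a pair joined by a line. Black bars are the mean and SD of the 4 arrays of a fraction, and the dotted line is the filter value of 4.38. In every pair GFP+ is above GFP- in the upper row and below it in the lower row, and for Mesp1, Aplnr, Frzb and Dll3 the E6.5 lines are the steeper ones.

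The 25 genes that were at least 1 lower in GFP+ cells in every pair included genes of the pluripotent epiblast, of epithelial junctions and of the X chromosome. Utf1, a chromatin-associated factor of pluripotent cells, was at 6.13, 8.40, 5.30 and 6.56 in GFP+ cells, against 11.00, 10.93, 8.26 and 9.30 in GFP- cells. Its smallest pair difference was the widest of the 25, and its groups overlapped only through GFP+ at E6.5 replicate 2 and GFP- at E7.5 replicate 1 (mean difference -3.27, SE 0.42, limma adjusted p = 0.231). Slc7a3, a cationic amino acid transporter, was at 5.58, 7.93, 5.91 and 5.89 in GFP+ cells, against 10.36, 10.24, 8.27 and 8.53 in GFP- cells. Its fractions did not overlap (mean difference -3.02, SE 0.45, limma adjusted p = 0.256). Sox2, a transcription factor of pluripotent and neural cells, was at 3.56, 3.98, 3.66 and 2.88 in GFP+ cells, against 4.65, 6.24, 5.81 and 4.30 in GFP- cells. All 4 GFP+ arrays lay below 4.38 for Sox2, so the size of its difference (-1.73, SE 0.24) is uncertain. Eras, a Ras-like GTPase of embryonic stem cells, was at 6.26 to 7.37 in GFP+ cells, against 8.38 to 9.15 in GFP- cells, with no overlap (mean difference -2.08, SE 0.25).

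Of the epithelial genes among the 25, Cdh1, which encodes E-cadherin, was at 5.84, 6.14, 5.84 and 5.36 in GFP+ cells, against 8.02, 8.29, 6.99 and 6.99 in GFP- cells. Its fractions did not overlap (5.79 ± 0.32 in GFP+ and 7.57 ± 0.68 in GFP- cells, SD, n = 4 each), and the mean difference was -1.78 (SE 0.21, limma adjusted p = 0.228). Cldn4, a claudin of tight junctions, was at 4.34, 3.99, 4.25 and 4.08 in GFP+ cells, against 7.54, 5.68, 6.61 and 6.44 in GFP- cells. Every GFP+ array lay below the filter value for Cldn4, and the mean difference was close to the same at the stages (-2.44 at E6.5 and -2.36 at E7.5). Lima1, an actin-binding protein that ties E-cadherin complexes to the cytoskeleton, had a mean difference of -1.29 (SE 0.15), and its fractions overlapped across replicate numbers. Grb7, an adaptor that binds activated receptor tyrosine kinases, was at 5.54, 7.00, 6.99 and 6.72 in GFP+ cells, against 9.37, 9.30, 8.24 and 8.34 in GFP- cells. The fractions did not overlap for Grb7, and its mean difference was -2.25 (SE 0.44).

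The promoters of Cldn4 and Sox2 are shown as the junction gene and the pluripotency factor of this set that hold a searched motif, from the same RefSeq table (GRCm38.p6) and in the same form. Cldn4 lies at chr5:134946935-134947184 on the minus strand, and the capitals mark the same E-box as in Dll3, again read on the other strand. Sox2 lies at chr3:34649745-34649994 on the plus strand, with ATGCAAA in capitals, which reads TTTGCAT on the other strand and is the octamer of POU factors without its first base.
Cldn4: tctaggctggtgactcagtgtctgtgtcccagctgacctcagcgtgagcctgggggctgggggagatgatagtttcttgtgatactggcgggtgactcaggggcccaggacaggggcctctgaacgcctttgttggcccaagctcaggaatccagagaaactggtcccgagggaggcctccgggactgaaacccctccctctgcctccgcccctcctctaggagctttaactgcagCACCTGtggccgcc
Sox2: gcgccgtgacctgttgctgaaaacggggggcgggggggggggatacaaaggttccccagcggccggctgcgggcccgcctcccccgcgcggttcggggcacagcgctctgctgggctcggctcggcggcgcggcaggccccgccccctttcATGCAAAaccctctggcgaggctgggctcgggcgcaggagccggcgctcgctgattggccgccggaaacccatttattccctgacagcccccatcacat

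The X chromosome carried 4 of the 25 lower genes (Eras, Rhox5, Slc7a3 and Trap1a) and 2.92% of all genes measured. The median difference of all measured X-linked genes was 0.016, so as a whole they were not lower. Among genes whose fractions did not overlap, X held 10 of the lower ones (5.35% of those with a known chromosome) and 3 of the higher ones. Rhox5, a homeobox gene active in extraembryonic tissue and testis, had the largest mean difference of the 25 (-3.47, SE 0.64, limma adjusted p = 0.305). It was at 4.71, 5.02, 5.62 and 6.07 in GFP+ cells, against 8.42, 9.98, 9.77 and 7.12 in GFP- cells, so the groups did not overlap but the last pair was only 1.05 apart. Trap1a, a gene first known for a tumour antigen, was at 3.69, 3.98, 4.05 and 3.49 in GFP+ cells, against 5.35, 7.26, 6.58 and 6.28 in GFP- cells, with all GFP+ arrays below 4.38. Xist, the RNA that silences an X chromosome in females, differed by -0.27 (SE 0.14), and its fractions overlapped. None of 3 measured sex-linked marker genes had 1 sign in all pairs (median -0.16).

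Dtx1, Miat, Pipox and Tpd52, of varied function, were also among the 25 lower genes. Dtx1, a deltex ubiquitin ligase that acts on Notch receptors, was at 4.07, 4.51, 3.94 and 4.38 in GFP+ cells, against 7.89, 7.17, 5.61 and 5.73 in GFP- cells. Its fractions did not overlap, and its GFP+ mean (4.22) lay below the filter value. Miat, a long noncoding RNA, was at 3.51, 4.04, 4.04 and 3.87 in GFP+ cells, against 6.60, 7.06, 5.55 and 6.53 in GFP- cells. The mean difference of Miat was -2.57 (SE 0.29), with GFP+ again near the low end of the arrays. Pipox, a peroxisomal oxidase of sarcosine and pipecolic acid, was at 3.84, 5.73, 4.10 and 4.61 in GFP+ cells, against 6.86, 7.73, 6.04 and 7.07 in GFP- cells. Its fractions were apart in every array. Tpd52, a protein of vesicle traffic, had the lowest unadjusted p of all genes and one of the steadiest differences (-1.82, -1.38, -1.41 and -1.42, limma adjusted p = 0.228), although its fractions overlapped because both were higher in E6.5 replicate 1. Another probe set of Tpd52 above the filter differed by only -0.12 and had both signs over the pairs (-0.72 to 0.27). The remaining one above the filter was lower in every pair (-2.54 to -1.39).

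The remaining 11 lower genes had mean differences between -2.38 and -1.15. They were Tmem54 (-2.38), Ddah1 (-2.10, which degrades an inhibitor of nitric oxide synthases), Nav2 (-1.99), Sall2 (-1.94, a zinc-finger factor), Tmem106c (-1.62), 1700019D03Rik (-1.62), Mkrn1 (-1.60, a ubiquitin ligase), Sbk1 (-1.59, a kinase), Sema4d (-1.55, a semaphorin that binds plexins), Ahr (-1.33, the aryl hydrocarbon receptor) and Lrrn4 (-1.15). Over all 25 genes the limma adjusted p was 0.228 to 0.305, and the fractions did not overlap for 18. The GFP+ mean lay below 4.38 for 6 of the 25. Other probe sets above the filter existed for 11 of the 31 genes, and all 18 of these probe sets had the sign of the one used, 16 of them in all 4 pairs. The exceptions were the Tpd52 probe set with both signs and 1 of Tmem106c (-1.91 to 0.19 over the pairs).

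**Figure D2:**
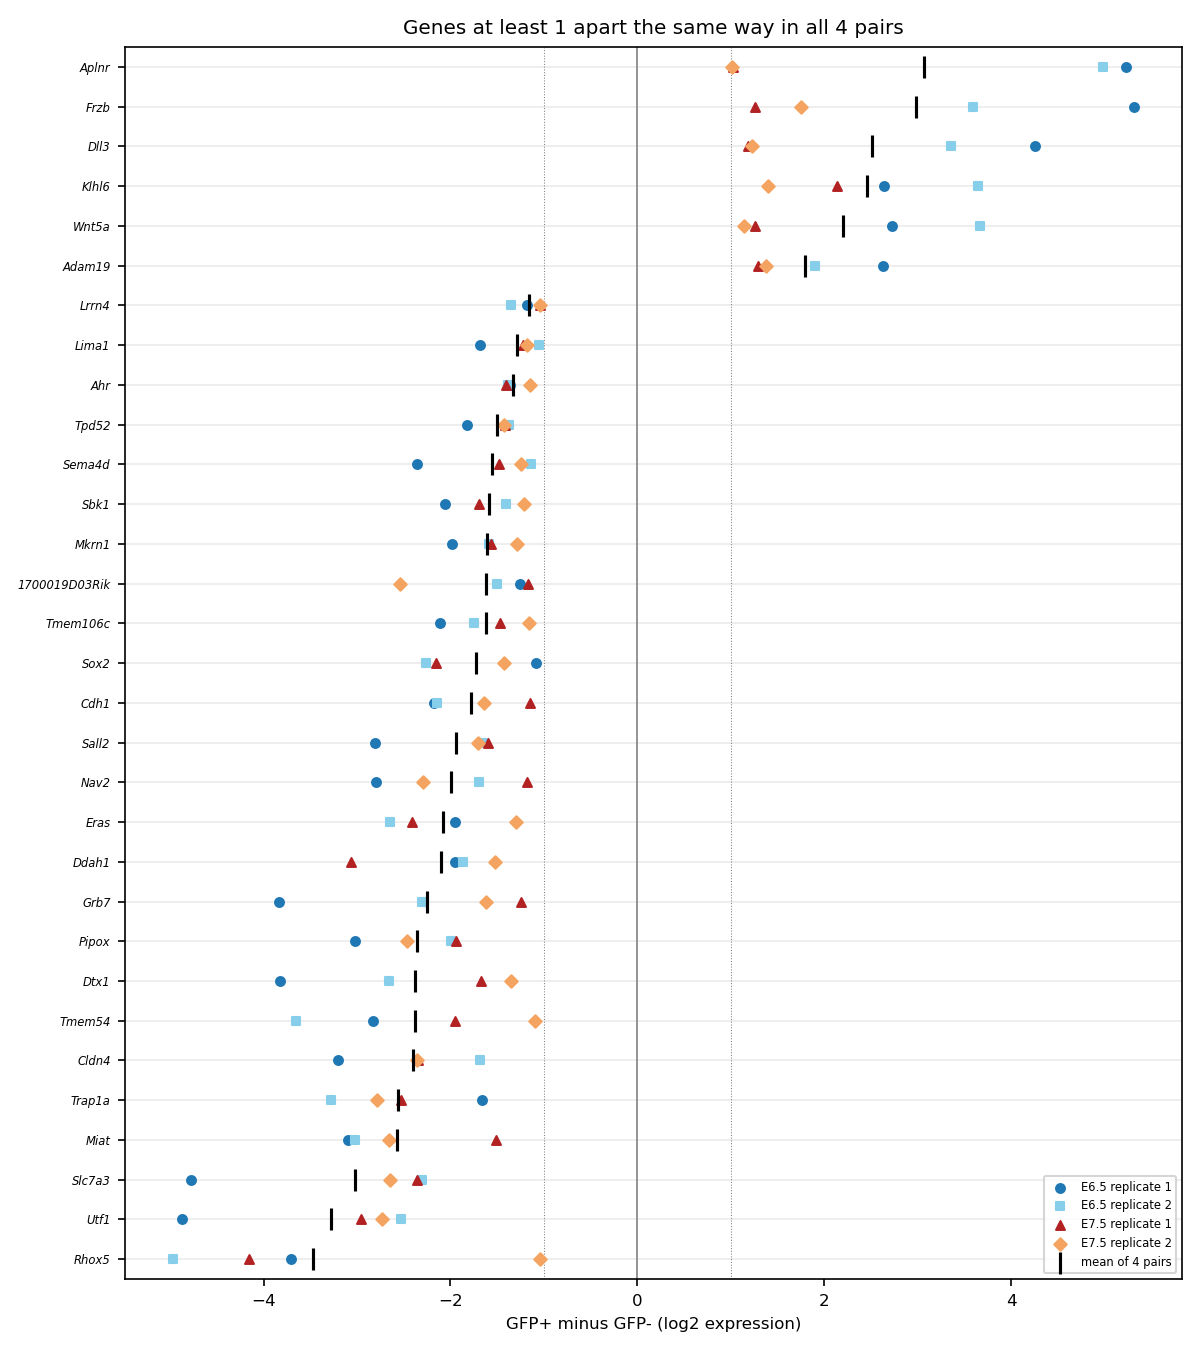
GFP+ minus GFP- difference (log2, x axis) of the 31 genes at least 1 apart the same way in all 4 pairs, with 1 symbol per pair and a black bar for the mean of 4. Dotted lines mark differences of 1 in size, the step used to choose the genes. The 6 upper genes have mean differences of 1.02 to 1.77 at E7.5 and 2.26 to 5.11 at E6.5, and in 21 of the 25 lower genes the E6.5 mean is also the larger in size.

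Just short of the step, Eomes had a smallest pair difference of 0.96 and Tbx6, a T-box factor of paraxial mesoderm, one of 0.96, while Dlc1 reached 0.90. Another probe set above the filter had both signs over the pairs for Eomes (-0.27 to 2.45) and for Dlc1 (-0.27 to 1.38). Eomes was at 11.01, 10.30, 9.89 and 8.45 in GFP+ cells, against 9.17, 9.34, 7.58 and 6.89 in GFP- cells. Its mean difference was 1.66 (SE 0.24, limma adjusted p = 0.256), and it was lower at E7.5 than at E6.5 in both fractions, whereas Tbx6 was higher. On the lower side Meg3 had a smallest pair difference of -0.99 and Rian one of -0.90, 2 noncoding RNAs of 1 imprinted cluster on chromosome 12. Meg3 was at 9.77, 9.93, 9.29 and 10.04 in GFP+ cells, against 10.87, 11.38, 10.29 and 11.17 in GFP- cells, a mean difference of -1.17 (SE 0.14). Neither Meg3 nor Rian overlapped between the fractions. Another probe set of Rian had both signs (-1.71 to 0.68), and its other ones were lower in every pair.

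The sizes at the stages were set side by side in a fit that gave each stage its own difference. The 6 higher genes had a median difference of 3.50 at E6.5 and 1.27 at E7.5, and all 6 were larger at E6.5. The 25 lower genes had a median difference of -2.23 at E6.5 and -1.65 at E7.5, with 21 larger in size at E6.5 and 4 at E7.5. As means of 2 pairs, differences over all genes were also wider at E6.5 (SD 0.56) than at E7.5 (SD 0.43), so larger mean differences at E6.5 were not limited to the chosen genes. In single pairs the SD was 0.71 and 0.62 at E6.5 and 0.50 and 0.66 at E7.5. The second E7.5 pair was thus wider than the second E6.5 pair. No gene passed the test of the difference between the stages (0% of genes, limma, with 790 at an unadjusted p under 0.05, 6.75%), so a difference in size between stages was not shown for any single gene. At E6.5 alone Aplnr passed (difference 5.11, 0.00854% of genes), and at E7.5 alone no gene did, with 1238 genes (10.6%) and 753 genes (6.43%) at an unadjusted p under 0.05.

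The share of genes that differed the same way at the other stage was counted from each stage in turn. Of 161 genes at least 1 higher in GFP+ cells in both E6.5 pairs, 83 (51.6%) were also higher in both E7.5 pairs, beside 24.8% of all genes. Of 222 genes at least 1 lower in both E6.5 pairs, 131 (59%) were lower in both E7.5 pairs, beside 26.3% of all genes. The step of 1 was kept at E7.5 by 6 of the 161 higher genes (3.73%, beside 0.384% of all genes) and by 25 of the 222 lower ones (11.3%, beside 0.555%). Read from the later stage, 23 of 45 higher genes (51.1%, beside 30.6%) and 48 of 65 lower genes (73.8%, beside 28.1%) had the same sign in both E6.5 pairs. Across replicate numbers, 42 of 75 higher genes (56%, beside 25.1%) and 60 of 84 lower genes (71.4%, beside 27.7%) at least 1 apart in replicate 1 kept their sign in both pairs of replicate 2. Tmem191c was the single gene at least 1 apart in opposite directions in both pairs of each stage, lower at E6.5 and higher at E7.5 in GFP+ cells.

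**Figure D3:**
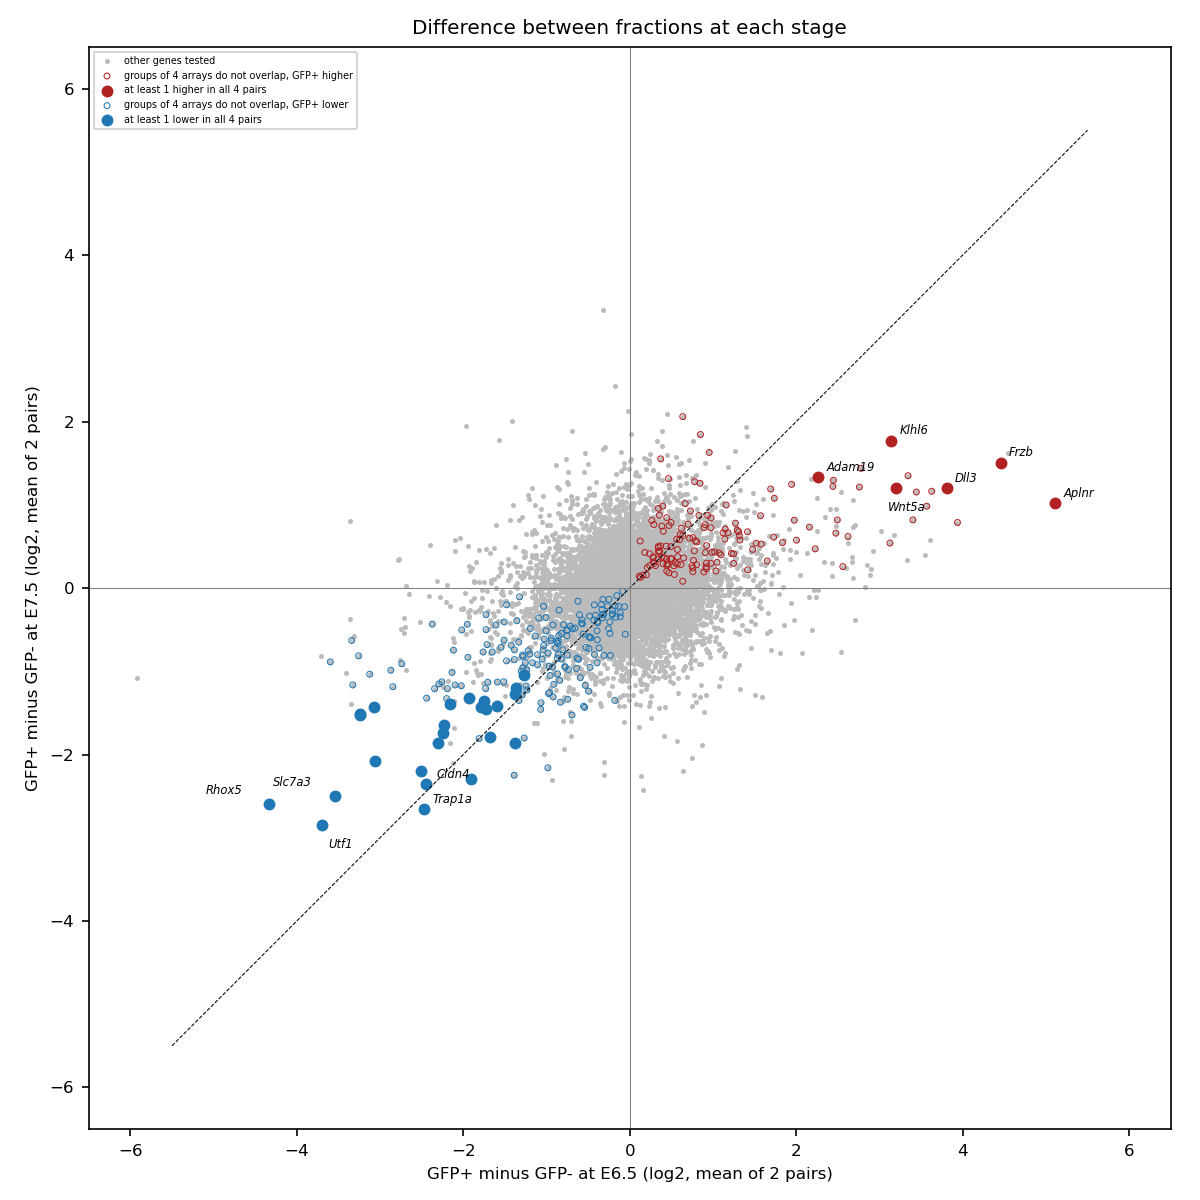
GFP+ minus GFP- difference at E6.5 (x axis) against that at E7.5 (y axis), both log2 means of 2 pairs, for the 11706 genes. Filled points are the 6 higher and 25 lower genes, open points the genes whose 4 GFP+ and 4 GFP- arrays do not overlap, and the dashed line marks equal differences. The higher genes lie below the dashed line, at E6.5 differences of 2.26 to 5.11 and E7.5 differences of 1.02 to 1.77.

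Over all genes the mean differences at the stages correlated weakly (Pearson r = 0.255, Spearman rank correlation 0.157 across 11706 genes, which are not independent and share arrays of 50 amplified cells). Single pairs correlated at r = 0.422 within E6.5, at 0.0676 within E7.5 and at 0.123 to 0.203 across the stages. The E7.5 pairs thus resembled each other less than they resembled the E6.5 pairs.

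For the gene lists below, the counts of members higher or lower in all 4 pairs stand beside 9.1% higher and 9.14% lower among all genes. They rest on 1 probe set per gene, and another probe set of some genes had both signs. Among 22 measured genes of the primitive streak and nascent mesoderm, 11 were higher in all 4 pairs and none lower, with a median difference of 1.47 (no member passed the test). Mixl1, which encodes a streak homeobox factor, was at 10.91, 10.57, 9.89 and 7.81 in GFP+ cells, against 4.50, 7.90, 7.13 and 7.33 in GFP- cells. It differed by 3.08 (SE 0.92), but the last pair was nearly even. Lefty2, a secreted Nodal inhibitor, differed by 1.83 (SE 0.37), and Sp5, a Wnt-induced transcription factor, by 2.11 (SE 0.58), both without overlap. The paraxial and presomitic list had 7 of 15 genes higher in all 4 pairs and none lower (median 1.05). In it Mesp2, the close relative of Mesp1 that sets somite borders, was at 6.78, 7.24, 4.81 and 6.53 in GFP+ cells, against 4.08, 4.37, 4.30 and 4.17 in GFP- cells. The GFP- arrays of Mesp2 all lay below 4.38, so its difference of 2.11 (SE 0.42) is of uncertain size.

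Notch pathway genes of different roles were higher in GFP+ cells. The receptor gene Notch1 was at 7.27, 8.11, 8.65 and 9.84 in GFP+ cells, against 5.46, 7.34, 7.08 and 8.85 in GFP- cells (difference 1.28, SE 0.21). The ligand gene Dll1 was at 7.62, 7.04, 9.19 and 9.69 in GFP+ cells, against 6.00, 6.30, 8.02 and 7.97 in GFP- cells (difference 1.32, SE 0.20). Lfng, a glycosyltransferase that modifies Notch receptors, differed by 1.46 (SE 0.27), and the target gene Hes1 by 0.77 (SE 0.26). For the probe sets used, Notch1, Dll1, Lfng and Hes1 were higher in GFP+ cells in every pair, with differences of like size at the stages for Notch1 (1.29 at E6.5 and 1.28 at E7.5). Another probe set of Notch1 above the filter differed by 0.94 on average but had both signs over the pairs (-0.20 to 1.66). Of 17 measured Notch genes 6 were higher in all 4 pairs and 3 lower (Dtx1, Dtx4 and Mfng), and the list median was 0.06 (0.23 without E6.5 replicate 1).

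Of 24 measured Wnt genes 8 were higher in all 4 pairs (median 0.28, and 0.10 without E6.5 replicate 1). The ligand genes among them were Wnt3 (1.66), Wnt5a (2.20), Wnt2b (1.45) and Wnt11 (0.23), and the antagonist Frzb stood beside the feedback inhibitor Nkd1 (0.76), the nuclear factor Lef1 (0.97) and the target Sp5. The other Wnt antagonist with 1 sign in all pairs, Sfrp2, was lower (-1.28). In the BMP pathway 5 of 20 genes were higher and 2 lower (median 0.10), with the transducer Smad1 (1.68) and the target Msx2 (1.18) higher and the targets Id2 (-1.82) and Id3 (-0.39) lower. Id2 was at 6.32, 7.14, 6.99 and 6.14 in GFP+ cells, against 8.16, 8.09, 8.93 and 8.71 in GFP- cells, so 2 genes known as BMP targets, Msx2 and Id2, differed in opposite directions. Of 21 FGF genes 4 were higher and 1 lower (median 0.15, and -0.05 without E6.5 replicate 2), including the ligand Fgf3 (1.52) and the inhibitor Spred1 (1.53). Another probe set above the filter had both signs over the pairs for Smad1 (-0.29 to 2.29) and Fgf3 (-0.10 to 1.84). Other probe sets of Spred1 ran from -0.18 to 1.56 and from -0.77 to 1.86, and its remaining ones were higher in every pair. In the Nodal and TGF-beta list 1 of 15 genes, Lefty2, had 1 sign in all pairs (median -0.01).

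Epithelial genes were mostly lower in GFP+ cells, and several mesenchymal genes were higher. Among 21 measured epithelial junction and keratin genes, 15 were lower in GFP+ cells in all 4 pairs and 1, the desmosomal gene Dsp (0.93), was higher (median -0.86). The claudin genes Cldn6 (-1.60, SE 0.24) and Cldn7 (-1.63, SE 0.26) and the polarity gene Crb3 (-1.78, SE 0.36) had no overlap between fractions. Epcam, an epithelial adhesion protein, differed by -1.37 (SE 0.44), with 8.82, 8.20, 8.32 and 5.39 in GFP+ cells, against 9.64, 9.62, 8.62 and 8.33 in GFP- cells. Of 17 mesenchymal genes 9 were higher in all 4 pairs and 1 lower (median 0.63). Snai1, the repressor of E-cadherin, was at 10.83, 11.09, 10.09 and 10.46 in GFP+ cells, against 7.54, 8.12, 9.54 and 9.93 in GFP- cells. The fractions did not overlap for Snai1, and its mean pair difference was 3.13 at E6.5 and 0.54 at E7.5. Fn1, the gene of fibronectin, led the 6 of 17 matrix genes higher in all pairs (difference 1.91, SE 0.56, list median 0.27), and the integrin subunit genes Itga5 (1.01) and Itgb1 (0.74) were higher with it. Among 9 cadherins 4 were higher in all pairs (Cdh3, Cdh11, Pcdh7 and Pcdh19) and 1, Cdh1, was lower (median 0.76). Of the higher ones, Cdh11 (1.97, SE 0.70) and Pcdh7 (2.30, SE 0.60) lay below 4.38 in the GFP- mean.

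Genes of the epiblast and pluripotency were lower in 12 of 17 cases in all 4 pairs and higher in none (median -1.04), and the list holds Utf1, Slc7a3, Sox2, Grb7 and Trap1a described above. Esrrb (-2.01, SE 0.54), a nuclear receptor of naive pluripotency and trophoblast, was also lower, with a GFP+ mean below 4.38. Pou5f1, the octamer factor of pluripotent cells, was at 11.35, 10.87, 10.40 and 9.98 in GFP+ cells, against 11.12, 10.98, 10.40 and 10.61 in GFP- cells. It differed by -0.13 (SE 0.18), and the fractions overlapped. Nanog differed by -0.47 (SE 0.27) and Fgf5 by -0.56 (SE 0.33), also with overlap. Of 15 genes of the anterior epiblast and of neural or surface ectoderm 3 were lower in all pairs (Sox2, Otx2 at -0.55 and Zic5 at -0.43) and none higher (median -0.43). Slc7a3 and Sox2, whose fractions did not overlap, were among the genes chosen for a difference of at least 1 in every pair. Their separation is therefore a description, and for Sox2 it lay close to 4.38. Pou5f1, Nanog and Fgf5 were not among the chosen genes.

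Among cardiac genes, Gata4 and Gata6 were higher in GFP+ cells in every pair. Gata4 was at 8.34, 9.08, 8.69 and 8.45 in GFP+ cells, against 4.45, 7.46, 7.01 and 7.71 in GFP- cells, and Gata6 differed by 2.40 (SE 0.74). Both zinc-finger factors, which act in heart and endoderm, had fractions without overlap, and they were the 2 of 17 cardiac regulators higher in all pairs (median 0.00), a share close to that of all genes. Of 11 contraction genes Actc1 alone was higher in all pairs (0.81, SE 0.34, list median 0.04), and Tnnc1 was higher only at E7.5 (6.52 and 8.18 in GFP+ cells, against 4.24 and 3.76 in GFP- cells). Among 16 Hox, Cdx, Meis and Pbx genes, Meis2 (2.09, SE 0.66) and Hoxb1 (1.83, SE 0.66) were higher in every pair and Hoxb4 (-0.37) and Hoxd4 (-0.11) lower (median -0.01). In the migration list 5 of 26 genes were higher and 2 lower (median 0.39), among them the ephrin receptor gene Epha4 (1.71, SE 0.43) and Pdgfrb (0.91, SE 0.17) on the higher side. Cxcl12, a chemokine, was lower (-1.57, SE 0.39), with 7.33, 7.01, 4.63 and 6.11 in GFP+ cells, against 7.98, 8.32, 7.64 and 7.43 in GFP- cells. Another probe set of Cxcl12 had both signs over the pairs (-1.84 to 0.35), and its remaining one was lower in every pair (-0.67 to -0.08).

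Glycolysis genes with 1 sign in all pairs were all lower in GFP+ cells, 5 of 17 (median -0.20). They comprised the glucose transporter genes Slc2a1 (-0.77, SE 0.15) and Slc2a3 (-1.30, SE 0.26), hexokinase Hk1 (-1.11, SE 0.24), Pfkp (-0.71) and the lactate transporter gene Slc16a3 (-0.26). Another probe set of Hk1 above the filter differed by only -0.24 and had both signs over the pairs (-1.07 to 0.30). Slc2a1 was at 10.26, 10.29, 10.98 and 11.02 in GFP+ cells, against 11.40, 11.04, 11.61 and 11.60 in GFP- cells, with no overlap. Of 19 immediate early and stress genes 7 were lower and 1 higher (median -0.33), with Jund (-0.96) and Fosb (-0.87) among the lower ones. Of 19 cell cycle genes 2 were higher and 1 lower (median 0.00), and of 10 reference genes 1 was higher and 1 lower (median 0.02). Of 4 measured germ cell genes Ifitm1 (1.68), also expressed in early mesoderm, and Dnd1 (0.84) were higher in all pairs. A separate set of 3 measured germ cell markers had 0 higher and 2 lower in all pairs. The lower ones, Prdm1 and Dppa3, had means below 4.38 in both fractions. The set summed to 191.6 to 451.9 in GFP+ and 224.9 to 636 in GFP- arrays, of which Ifitm3 made up most.

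**Figure D4:**
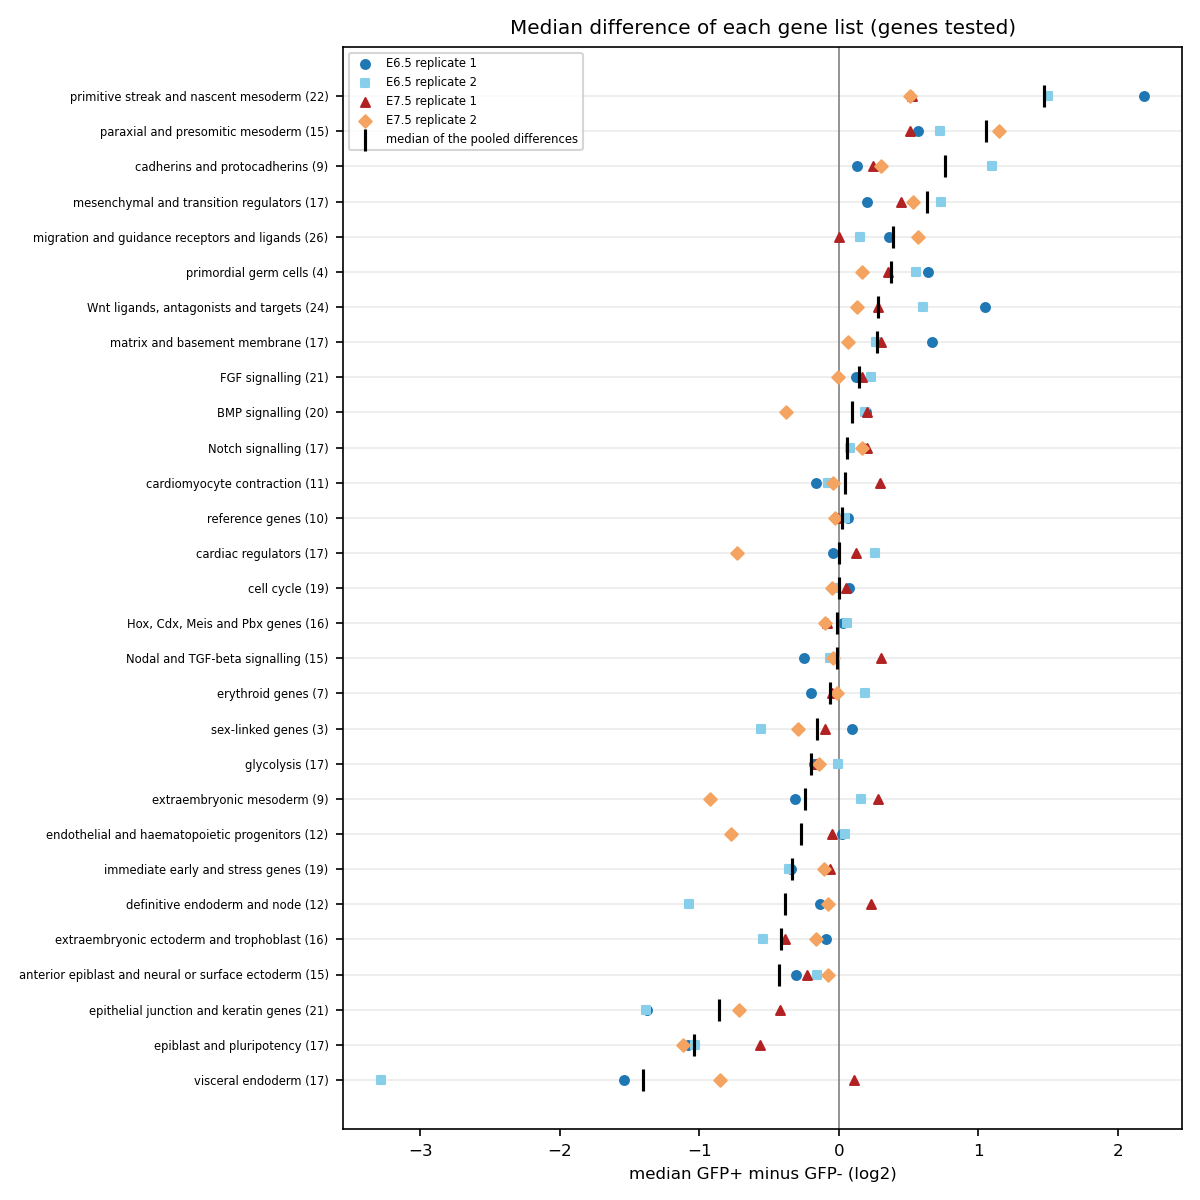
Median GFP+ minus GFP- difference (log2, x axis) over the measured members of each gene list (number in brackets), with 1 symbol per pair and a black bar for the median of the mean differences. The streak list (1.47) and the paraxial list (1.05) lie highest. The visceral endoderm (-1.40), epiblast (-1.04) and epithelial (-0.86) lists lie lowest, and the visceral endoderm list is near 0 in E7.5 replicate 1.

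Markers of other embryonic tissues were compared as lists and as summed levels. Visceral endoderm genes were lower in GFP+ cells in all 4 pairs for 7 of 17 and higher for 1 (median -1.40, and -0.74 without E6.5 replicate 2). Apob, a lipoprotein of the visceral endoderm, was at 3.78, 4.28, 3.49 and 4.23 in GFP+ cells, against 6.14, 8.62, 3.51 and 7.00 in GFP- cells, so the GFP- array of E7.5 replicate 1 was as low as GFP+. The summed linear level of 12 visceral endoderm markers was 278.2 to 564.3 in GFP+ arrays and 444.4 to 4742 in GFP- arrays. Of the GFP- sums 2.8% to 44.3% was Spink1, with pair differences of -4.69, -7.13, 3.75 and -5.92. Without Spink1 the sums were 267.1 to 458.4 in GFP+ and 432 to 3333 in GFP- arrays, and they overlapped both with and without it. For 4 measured markers of extraembryonic ectoderm the summed level was 98.97 to 171.1 in GFP+ and 274.5 to 1177 in GFP- arrays, but Rhox5, one of the 25 genes chosen as lower, made up 50.5% to 85.9% of the GFP- sums. Without Rhox5 the sums were 72.72 to 103.9 in GFP+ and 91.06 to 166 in GFP- arrays, which overlap, and none of the other 3 markers had 1 sign in all pairs. In the trophoblast list, which holds Rhox5 and Esrrb, 5 of 16 genes were lower and 1, Eomes, higher. For 4 markers of definitive endoderm and node it was 189.6 to 616 in GFP+ and 670.3 to 1375 in GFP- arrays, and Trh made up 61.3% to 93.0% of the GFP- sums. Without Trh the sums were 85.98 to 209.1 in GFP+ and 96.05 to 274.5 in GFP- arrays, which overlap. Of 12 genes of that list Trh (-2.25, SE 0.56) and Sox17 (-0.69, SE 0.21) were lower in all pairs and Nog (0.93, SE 0.48) higher, while Chrd and Foxa2 had both signs (median -0.38, and 0.01 without E6.5 replicate 2). The part of these tissues in the lower epithelial, epiblast and glycolysis genes, and in the X-linked genes among the 25, was not tested.

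Erythroid markers were low in most arrays. The summed level of 5 erythroid markers was 56.82 to 71.55 in GFP+ and 64.19 to 220.4 in GFP- arrays, and all 5 markers had a GFP+ mean below 4.38. Of 7 erythroid genes Gata1 was lower in all pairs (-0.86, median of the list -0.06). Its pair differences were -0.29, -0.68, -2.46 and -0.01, so the last pair was even. The erythroid gene Hbb-bh1 differed by 0.14, 0.19, -2.34 and -2.52. The 5 endothelial markers summed to 256.3 to 997.1 in GFP+ and 130.3 to 600.1 in GFP- arrays, which overlap. Among them Tal1, Pecam1 and Cdh5 had means below 4.38 in both fractions. Kdr, the VEGF receptor of blood and vessel progenitors, was at 6.73, 8.49, 9.19 and 7.27 in GFP+ cells, against 4.31, 5.11, 7.55 and 8.47 in GFP- cells. Kdr was higher in GFP+ cells in 3 pairs and lower in E7.5 replicate 2 (mean difference 1.56, SE 0.74). Of 12 endothelial and haematopoietic genes 3 were lower in all pairs (median -0.27), and of 9 extraembryonic mesoderm genes 2, Pitx1 (-0.27) and Igf2 (-0.98), were lower (median -0.24, and 0.16 without E7.5 replicate 2).

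Motifs were counted on both strands of the 250 bases before the start, for the 7540 measured genes with exactly 1 promoter in the RefSeq table. That covered 16 of the 31 genes. CAGGTG stood in 3 of 13 lower genes (Cldn4, Ddah1 and Eras) and in 1 of 3 higher genes (Dll3), beside 16.1% of measured genes and 17.1% of all 22855 promoters. Among genes whose fractions did not overlap it stood in 25 of 109 lower genes (22.9%) and 11 of 92 higher genes (12.0%). AGGTGT, which shares 5 bases with CAGGTG and can overlap it, stood in 0 of 13 lower and 1 of 3 higher genes (Frzb) of the 31. Among genes without overlap it stood in 19 of 109 lower genes (17.4%) and 7 of 92 higher genes (7.61%), beside 10.6% of measured genes and 12.2% of all promoters. The wider E-box CANNTG, which includes CAGGTG, stood in 6 of 13 lower and 3 of 3 higher genes of the 31, and in 62.4% of the lower and 52.2% of the higher genes without overlap, beside 57.4% of measured genes and 66.3% of all promoters. TTTGCAT stood in 3 of 13 lower genes (Dtx1, Pipox and Sox2) and 0 of 3 higher genes, in 7 of 109 lower genes without overlap (6.42%) and in 4 of 92 higher ones (4.35%), beside 3.05% of measured genes and 4.16% of all promoters. These are matches of letters with no test.

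The pair-blocked test counts a change of size between stages as error, and other fits of the same arrays made calls. With a mean for each fraction and stage and the replicate number as a block, 7 genes were higher (0.0598% of genes) and 1 was lower (0.00854%). They were Aplnr, Dlc1, Dll3, Fn1, Mesp1, Snai1 and Sp5 on the higher side and Miat on the lower (limma adjusted p = 0.0287 to 0.0407 in that fit, against 0.228 to 0.425 with the pair block). Without any block Aplnr alone passed (limma adjusted p = 0.0175), and 640 genes (5.47%) had an unadjusted p under 0.05, against 1250 (10.7%) with the replicate block. With the pair as a random block (consensus correlation 0.568), 72 of the 11706 genes were higher and 109 lower. These calls held all 6 higher and 23 of the 25 lower genes. Those genes were chosen for large differences in these same arrays, so their presence among the calls is no separate support.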

How the data were processed

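Expression was measured on 8 Affymetrix mouse perfect-match arrays, each of 50 sorted cells, and the number of arrays limits the precision. The deposited log2 values per probe set were made by the authors with RMA, per the submitters' processing notes, whose version and genome build are not given in the sources used here. The arrays of replicates 1 and 2 had different distributions, and no label says whether they were normalized together. Of 45141 probe sets, 28898 had 1 gene symbol in the platform annotation, 551 had several, 15588 were unnamed and 104 were controls (28689 matched RefSeq GRCm38.p6 by gene identifier). Probe sets with at least 2 of 8 arrays above 4.38, the median of all deposited values, were kept (18584), and the one with the highest mean stood for each gene (11706).

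GFP+ was tested against GFP- with limma 3.58.1 (R 4.3.3, lmFit and eBayes, two-sided), with pair and fraction as terms, 3 residual and 2.45 prior degrees of freedom and Benjamini-Hochberg adjustment. A second fit gave each stage its own difference (2 residual and 2.69 prior degrees of freedom). The script was tested on simulated data. Pairing by replicate number comes from the comparison itself. In the 6 pairings of groups, arrays with the same number deviated together (r = 0.401 to 0.532 across genes, of which 0.476 within E6.5 and 0.487 within E7.5).

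The comparison, its 29 gene lists and its tests were chosen with earlier results of these data known, so none is independent support. Genes named by rule were Mesp1, the 3 members of each list with the largest differences, the 4 genes with the largest smallest-pair difference in each direction, and any genes past the threshold. The rest of the 31 genes and the other genes named were chosen after their values were seen. Alternatives changed the pairing, filter, probe sets, normalization, variance model and pairs left out.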

Additional observations from a re-analysis of the deposited data

Results flagged for a closer look

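In 7 of the 114 named genes, 1 of the 4 pair differences stood apart from the other 3 by Dixon's criterion (gap to the nearest value over the whole range), which chance alone reaches in about 1 of 20 groups. Among the 31 genes at least 1 apart in every pair these were Slc7a3 (-4.78 in E6.5 replicate 1, against -2.64 to -2.30 in the others), Sall2 (-2.81 in E6.5 replicate 1, against -1.70 to -1.59), Tpd52 (-1.82 in E6.5 replicate 1, against -1.42 to -1.38) and Ahr (-1.15 in E7.5 replicate 2, against -1.41 to -1.37). The sign was the same in all 4 pairs for each of these. Sox17 stood apart with -1.38 in E6.5 replicate 2, against -0.50 to -0.40. Nog, a secreted BMP antagonist of the node and axial mesoderm, was 2.81 higher in GFP+ cells in E7.5 replicate 2, against 0.19 to 0.41 in the other pairs. The TGF-beta receptor gene Tgfbr1 was 2.47 higher in E6.5 replicate 1, against -0.11 to 0.14, so its mean difference of 0.63 came from that pair.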

How the results depend on the processing

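The pooled comparison called 0 genes under both stricter filters, no filter, the mean of all probe sets, quantile normalization, median centring, the variance trend, the pair block with a stage term, without each pair in turn and within each replicate number. It called 1 higher gene with no block, 7 higher and 1 lower with the replicate number as a block, and 72 higher and 109 lower with the pair as a random block. For E6.5 alone the count was 1, against 9 with no block, 30 with the replicate block, 4 with the mean of all probe sets and 8 with quantile normalization. The replicate block changed no other call. Without 1 pair, fewer pairs had to agree: 1631 to 2072 genes were higher and 1672 to 1973 lower in all pairs left, and 11 to 38 were at least 1 higher and 29 to 74 at least 1 lower.

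List medians moved by more than the replicate spread in some settings. With no filter they were -0.23 for anterior epiblast and ectoderm, 0.67 for paraxial mesoderm, -0.14 for germ cells, -0.11 for Hox and related genes and 0.27 for cadherins. With the mean of all probe sets they were -0.26 for anterior epiblast, 0.76 for paraxial mesoderm and -0.65 for extraembryonic ectoderm, and with the filter on the mean 0.15 for Notch. Within replicate 1 they were 0.53 for matrix, -0.30 for anterior epiblast, 0.71 for paraxial mesoderm, 0.14 for Notch, -0.056 for glycolysis and 0.069 for cell cycle, and within replicate 2 -0.25 for anterior epiblast and -0.034 for glycolysis. Without 1 pair they ranged from -0.33 to -0.17 for anterior epiblast, -0.0030 to 0.23 for Notch, -0.15 to -0.10 for glycolysis, -0.048 to 0.20 for FGF, 0.41 to 0.68 for mesenchymal genes, -1.90 to -0.74 for visceral endoderm, 0.098 to 0.40 for Wnt, 0.085 to 0.28 for matrix, 0.022 to 0.28 for BMP, 0.24 to 0.50 for migration, 0.48 to 0.73 for cadherins, -0.53 to -0.27 for trophoblast, -0.35 to -0.20 for stress genes and -0.34 to -0.12 for endothelial genes. Beside Notch and FGF, the median took both signs without 1 pair for extraembryonic mesoderm (-0.29 to 0.16), definitive endoderm and node (-0.62 to 0.011), cardiac regulators (-0.057 to 0.055), contraction (-0.027 to 0.18), cell cycle (-0.018 to 0.041), Hox and related genes (-0.052 to 0.025) and Nodal (-0.071 to 0.068).

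Differences with the opposite sign were found for Kdm5d (0.10 with the mean of all probe sets), Tbx3 (-0.22 within replicate 2), Pou5f1 (0.11 within replicate 1, and -0.25 to 0.039 without 1 pair), Eif2s3y (0.75 within replicate 1, and -0.70 to 0.35 without 1 pair), Cer1 (-2.16 to 0.23 without 1 pair) and Tfap2c (-0.92 to 0.020 without 1 pair). The cause was not tested. The 4 pairs share 2 replicate numbers and 2 stages, and no measure of background per probe set was used here, so differences against values below 4.38 are of uncertain size.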

Other observations

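Probe sets without a gene symbol were kept out of the counts above. Of 7759 unnamed probe sets above the filter, 6 were at least 1 higher and 8 at least 1 lower in GFP+ cells in all 4 pairs. The 2 with the largest mean difference on the higher side were 1458102_PM_at, with pair differences of 4.84, 3.45, 2.45 and 1.17, and 1437218_PM_at, with 4.48, 3.80, 1.53 and 1.84. On the lower side they were 1434436_PM_at, with -2.74, -3.21, -2.19 and -3.53, and 1435192_PM_at, with -2.51, -2.64, -3.68 and -2.43. The 2 higher probe sets were farther apart at E6.5 than at E7.5 in both pairs, and the 2 lower ones were not.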
